A study of Mus musculus with 6 samples.

Results

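Stretches of acetylated histone H3 (H3ac) that lay inside protein-coding genes, away from promoters, and that were called in young, old and acetate-treated old mesenchymal stem cells (MSCs) numbered 4558 of the 24431 regions in the table (18.7%). They were chosen by the code in each region's name, which marks it as present in Young, Old and OldAcetate, by a length under 20 kb, by the absence of a protein-coding start site within 1 kb, and by overlap with the body of at least 1 protein-coding gene. The labels do not define the code, which is read here from its letters. It comes from calls made on the same 6 libraries, so the differences between groups given below are descriptions of regions selected on these data. Regions of the same code and length within 1 kb of a start site (8909 shared promoter regions) and outside gene bodies (4539 shared intergenic regions) served for comparison.

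MSCs are the multipotent stromal cells of bone that can form osteoblasts, adipocytes and chondrocytes. The Young group was taken from mice aged 3 to 5 months and left untreated, the Old group from mice aged 18 to 22 months and also left untreated, and the OldAcetate group from mice aged 18 to 22 months and exposed to sodium acetate at 5 mM over 3 days. Every group was cultured at 2% oxygen in medium with 10% serum and 1% antibiotic. H3ac was profiled by CUT&RUN, in which an antibody tethers a nuclease to marked chromatin and the released DNA is sequenced. Each group had 2 libraries. Nothing in the labels says that the 2 libraries of a group came from separate mice, so their spread may be technical.

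Acetylation of histone H3 tails accompanies open chromatin at promoters and at enhancers, the distal elements that transcription factors bind to regulate genes. Many enhancers sit in introns, either of the gene they regulate or of a neighbour, and in stromal cells such elements are often bound by AP-1 (the FOS and JUN dimers), TEAD (the DNA-binding partners of YAP1 and TAZ), RUNX and C/EBP factors. Promoters in CpG-rich DNA carry SP/KLF and ETS motifs more often. Cells can turn acetate into acetyl-CoA, from which histone acetyltransferases draw the acetyl group. The comparisons address how H3ac differs with age and with acetate.

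To show what DNA these regions hold, a 100-base stretch is given for each of 6 regions with a high H3ac level per length, chosen as the stretch outside exons with most motif matches. All are on the + strand of GRCm38/mm10, written 5′ to 3′, with matches to the 7 motifs listed further on in capitals. They lie at chr12:78351703-78351802 in Gphn, chr13:119611954-119612053 beyond the end of Tmem267, chr3:25143312-25143411 in Naaladl2, chr7:107661724-107661823 in Ppfibp2, chr1:106629326-106629425 in Bcl2 and chr3:79179795-79179894 in Rapgef2.
Gphn: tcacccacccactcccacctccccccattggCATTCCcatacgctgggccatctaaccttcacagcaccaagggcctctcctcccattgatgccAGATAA
Tmem267: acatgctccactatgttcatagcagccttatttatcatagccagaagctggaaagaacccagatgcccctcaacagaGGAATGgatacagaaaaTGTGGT
Naaladl2: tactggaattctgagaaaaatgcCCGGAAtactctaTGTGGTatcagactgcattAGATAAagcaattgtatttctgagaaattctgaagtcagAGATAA
Ppfibp2: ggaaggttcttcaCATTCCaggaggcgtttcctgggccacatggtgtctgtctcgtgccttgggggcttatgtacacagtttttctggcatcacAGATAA
Bcl2: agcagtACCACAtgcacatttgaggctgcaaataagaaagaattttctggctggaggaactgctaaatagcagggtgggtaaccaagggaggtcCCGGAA
Rapgef2: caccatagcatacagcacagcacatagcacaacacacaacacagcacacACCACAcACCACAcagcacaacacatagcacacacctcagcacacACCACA
The Naaladl2 stretch holds 4 matches (ETS, RUNX and 2 of GATA) and the Rapgef2 stretch 3 RUNX matches within a run of short repeats. All 100 bases of the Tmem267 stretch and 73 of the Gphn stretch are soft-masked, that is, marked as repeats in the reference, and a read from a repeat can be hard to place. None of the 6 holds an AP-1 match.

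AP-1 matches are shown in the region with most reads from 5 of the gene lists described below, at the match nearest to the region's centre, because AP-1 was the motif whose share differed most in proportion from that of promoters among those more frequent here. These 5 were picked after their values were seen. Each is 60 bases of GRCm38/mm10 on the + strand, with motif matches in capitals, at chr2:58484060-58484119 in Acvr1, chr17:75055447-75055506 in Ltbp1, chr6:53616026-53616085 in Creb5, chr1:92083161-92083220 in Hdac4 and chr6:99137289-99137348 in Foxp1.
Acvr1: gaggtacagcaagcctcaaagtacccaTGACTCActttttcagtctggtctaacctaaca
Ltbp1: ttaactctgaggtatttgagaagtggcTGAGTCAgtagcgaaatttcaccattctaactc
Creb5: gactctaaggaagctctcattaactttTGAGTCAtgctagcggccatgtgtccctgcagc
Hdac4: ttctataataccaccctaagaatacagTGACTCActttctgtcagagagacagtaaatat
Foxp1: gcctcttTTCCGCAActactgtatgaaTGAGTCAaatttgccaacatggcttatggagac
None of these 5 stretches is soft-masked. The match lies 589.5 bp from the region's centre in Acvr1, 476.5 in Ltbp1, 440.5 in Hdac4, 431.5 in Foxp1 and 194.5 in Creb5. Only the Creb5 match lies in the central 500 bp used for the shares given further on. Over whole regions, which differ in length, an AP-1 match was found in 79.5% of intragenic, 60.3% of promoter and 77.4% of intergenic regions. The Foxp1 stretch also holds a C/EBP match, and its region holds 5 AP-1 matches in all.

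The intragenic regions covered 34.1 Mb. Their median length was 6500 bp (range 1500 to 19500 bp), against 5500 bp for shared promoter and for shared intergenic regions. Per length, the median H3ac level over the 6 libraries was 2.59 RPM per kb (RPM, reads scaled to the library total, as deposited), with quartiles of 2.29 and 2.94. Shared promoter regions had 3.17 and shared intergenic regions 2.64 RPM per kb. Levels were even among the intragenic regions: 319 of 4558 were under 2 RPM per kb and 75 were over 4 RPM per kb. Every region had reads in every library, with medians per region from 33 (Old replicate 1) to 59 reads (Young replicate 1).

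The base composition was close to that of intergenic regions. The median G+C content was 44.9% in the intragenic regions, 48.1% in shared promoter regions and 44.5% in shared intergenic regions. CpG dinucleotides stood at a median of 10.5 per kb, against 24.0 per kb at promoters and 10.0 per kb between genes. Part of this follows from the selection, since regions at start sites were left out. Soft-masked bases made up a median of 18.3%, against 18.4% at promoters and 20.5% between genes.

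Most of the regions were intronic. The centre lay in an intron in 3934 of 4558 regions (86.3%), in a coding exon in 100 and in a UTR in 118. In 406 it lay outside all coding transcripts, either within the gene's annotated span or past the gene's edge. Some part of the region touched a coding exon in 33.4% and a UTR in 14.5%. Where the centre could be placed in an intron of the main transcript (3730 regions), it was intron 1 in 25.3% and the last intron, other than intron 1, in 6.70%. Intron 1 made up 27.2% of the intron length of the same genes. The share of regions in intron 1 was close to this, but it is partly set by the rule, which removed regions at start sites. Each gene was cut into 5 equal parts from start to end. These held 14.3%, 21.6%, 22.8%, 20.2% and 21.0% of the 4194 regions that overlapped 1 gene and had their centre inside it. The low share in the part nearest to the start is partly set by the rule, which removed regions at start sites.

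**Figure D1:**
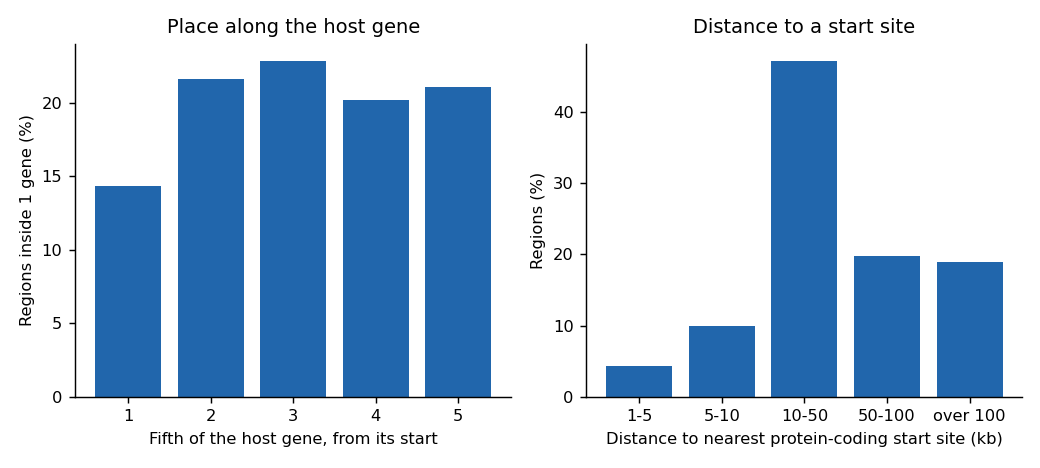
Place of the intragenic regions. Left, percent of the 4194 regions that overlap 1 gene and have their centre inside it, by 5 equal parts of that gene from its start. Right, percent of all 4558 regions by distance to the nearest protein-coding start site in kb. The part at the start holds 14.3% and the others between 20.2% and 22.8%, and 47.2% of regions lie 10 to 50 kb from a start site.

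The median distance to the nearest protein-coding start site was 35.2 kb (quartiles 15.9 and 78.8 kb), with 862 regions over 100 kb away and the farthest at 1057 kb. That nearest start site belonged to the host gene in 3465 of 4558 regions (76.0%). In the other regions the closest promoter was that of a neighbour, as for the region in Bach2 closest to Gja10. A start site of another biotype, such as a non-coding RNA, lay within 1 kb of 413 regions (9.06%), which count as intragenic here because the rule used protein-coding start sites only. At the bound of 1 kb, the nearest regions kept were those in Nhsl1 (1020 bp from the start site, 2.36 RPM per kb), Acaca (1063 bp, 2.70 RPM per kb) and Synpo2l (1074 bp, 3.40 RPM per kb). The nearest left out were in Il16 (978 bp, 3.83 RPM per kb), at Lsm1 and Star (974 bp, 2.46 RPM per kb) and in Acsl1 (966 bp, 3.12 RPM per kb). At the length bound, regions of 19500 bp in B3gntl1, Klhl29 and Asap2 had 2.66, 2.80 and 2.06 RPM per kb. Regions of 20000 bp in Sulf1, Nav1 and Lamc1, left out, had 2.66, 2.85 and 2.04 RPM per kb.

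Host genes numbered 2673 of 21924 protein-coding genes (12.2%), of which 1704 held 1 region, 828 held 2 to 4 and 141 held 5 or more. They were long genes, with a median of 96.2 kb against 17.4 kb for all protein-coding genes. The share of genes that held a region was 1.71% for genes up to 20 kb, 9.77% from 20 to 50 kb, 26.6% from 50 to 100 kb, 45.9% from 100 to 200 kb and 61.7% over 200 kb. A region at one of the gene's own start sites, of any code, was present for 79.4% of host genes and 56.8% of all protein-coding genes. Where neighbouring regions shared a host, the median gap between them was 28.5 kb. On chromosome X, 28 of 408 regions (6.86%) were of this kind, against 18.9% of autosomal regions.

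The genes with most regions were long genes with wide annotated spans. Gm20388, a gene model spanning 4435 kb, held 28, and Fgfr2, the receptor for fibroblast growth factors, held 22 within an annotated span of 2961 kb that also covers other genes. After these came Ptprm, a receptor tyrosine phosphatase of cell contacts (12), then Cdk14, a cyclin-dependent kinase linked to Wnt signalling, Pde4d, a cAMP phosphodiesterase, Gpc6, a cell-surface glypican, and Rbms3, an RNA-binding protein (11 each), and Nav2, a neuron navigator protein (10). Another gene was also overlapped by 9 of the 28 regions in Gm20388 and 15 of the 22 in Fgfr2. The coding span of Fgfr2 was 102 kb. In Nav2 the regions covered 114 kb. Summed over its 10 regions, Nav2 held 378 and 312 RPM in Young replicates 1 and 2, 291 and 260.5 RPM in Old, and 316 and 311 RPM in OldAcetate. Both Old libraries lay below both Young libraries, and the OldAcetate libraries overlapped with Young. In Ptprm the sums were 258 and 232 RPM in Young, 189 and 152 RPM in Old, and 197 and 207 RPM in OldAcetate. Old and OldAcetate were here both below Young without overlap. In all 8 genes the Old mean was below the Young mean and the OldAcetate mean lay between them.

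The highest level per length among regions of at least 2000 bp in a single gene was 5.51 RPM per kb, in intron 2 of Gphn, which encodes the inhibitory synapse scaffold gephyrin (chr12:78350001-78352000). Its libraries were uneven, at 4.61 and 11.8 RPM in Young, 19.9 and 8.35 RPM in Old, and 9.74 and 11.7 RPM in OldAcetate. The groups overlapped in every comparison. Tmem267 (chr13:119609001-119618500) followed at 5.47 RPM per kb and Naaladl2 (chr3:25141001-25148500) at 5.44 RPM per kb. Both regions cover a start site of another biotype, and the Tmem267 region runs past the end of the gene. Ppfibp2, encoding a liprin, came next at 4.99 RPM per kb in intron 3. Bcl2, the inhibitor of apoptosis, carried 4.90 RPM per kb in its intron 1 (chr1:106628001-106633000). It had 27.3 and 29.8 RPM in Young, 22.2 and 18.3 RPM in Old, and 26.9 and 22.5 RPM in OldAcetate, so Old lay below Young and OldAcetate above Old, each without overlap. Rapgef2, an activator of the GTPase Rap, had 4.87 RPM per kb in intron 4, Prr36 4.72 and the synaptic scaffold Magi2 4.65. The Prr36 and Magi2 regions were centred on coding exons, and the Magi2 region also covers a start site of another biotype.

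Next, it was asked which transcription factor motifs these regions hold. Matches on both strands were counted in the central 500 bp of each region for AP-1 (TGACTCA), TEAD (GGAATG), RUNX (TGTGGT), C/EBP (TTGCNNAA), SP/KLF (GGGCGG), ETS (CCGGAA) and GATA, whose letters were searched in the form AGATAA. The TEAD and ETS letters share GGAA, so a run can match both. AP-1 was found in 672 of 4558 intragenic regions (14.7%), against 6.81% of shared promoter regions, 15.3% of shared intergenic regions and 11.4% of all regions. TEAD matches were in 28.1% (promoters 21.0%, intergenic 28.9%, all regions 25.4%) and RUNX matches in 34.1% (promoters 25.8%, intergenic 34.7%, all regions 30.9%). C/EBP matches were in 19.7% (promoters 17.0%, intergenic 22.0%, all regions 19.2%) and GATA matches in 24.4% (promoters 17.6%, intergenic 25.2%, all regions 21.7%). For all 5 motifs the intragenic share was above that of promoters and nearer to that of intergenic regions.

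The G+C-rich motifs went the other way. SP/KLF matches were in 9.37% of the intragenic regions and 35.4% of promoters, and ETS matches in 6.03% and 16.7%. Intergenic regions had 9.25% and 6.59%, and all regions 20.0% and 10.3%. G+C content differs between the classes, as given above, and its part in these shares was not tested. Within the intragenic regions, SP/KLF matches became less frequent with distance, from 14.7% at 1 to 10 kb from a start site to 9.72% at 10 to 50 kb and 6.98% beyond 50 kb. The AP-1 share moved less, from 16.7% to 14.6% and 14.3%. The 672 regions with an AP-1 match had a median level of 2.67 RPM per kb (quartiles 2.37 and 2.99), and the 3886 without had 2.57 RPM per kb (quartiles 2.28 and 2.93). A match of letters is not a measured binding site.

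**Figure D2:**
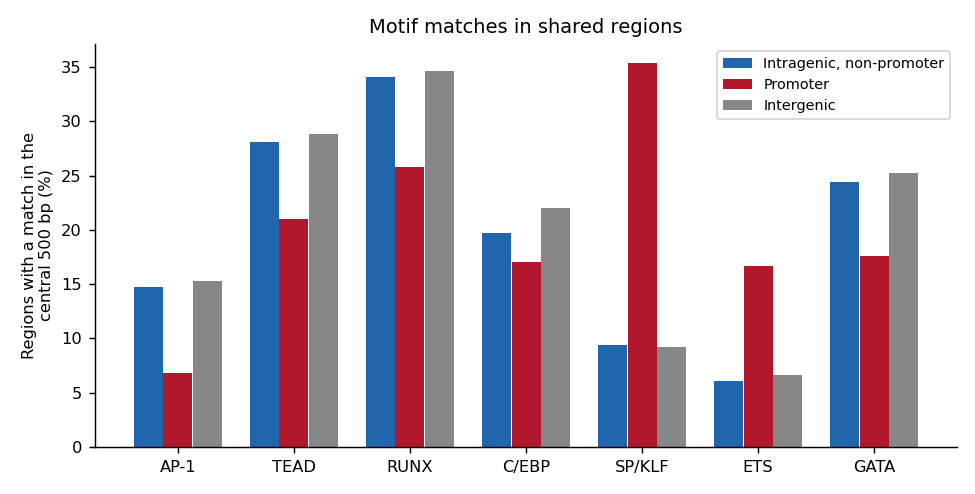
Percent of shared regions with at least 1 match to each motif in their central 500 bp, for intragenic non-promoter regions (4558), promoter regions (8909) and intergenic regions (4539). The intragenic and intergenic bars run together, with AP-1 at 14.7% and 15.3% against 6.81% at promoters, and SP/KLF at 9.37% and 9.25% against 35.4%.

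The H3ac level of the regions was then followed across groups. The 4558 regions took 10.4% and 9.16% of the reads of the Young libraries, 8.26% and 7.33% of those of Old and 8.87% and 8.86% of those of OldAcetate. Both Old libraries were below both Young libraries, and both OldAcetate libraries lay above Old and below Young. Young had a mean of 9.80% ± 0.903 (SD, n = 2). Old had a mean of 7.79% ± 0.657 (SD, n = 2), and OldAcetate of 8.86% ± 0.00582 (SD, n = 2). Old thus stood at 79.5% of Young, OldAcetate at 114% of Old and OldAcetate at 90.5% of Young. The same ratios over all regions of the table were 78.1%, 119% and 92.6%, so the fall and rise were shared with the rest of the table. With 2 libraries a group no permutation test can go below 0.333, and less H3ac per cell and a higher background in the library cannot be told apart in these values.

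Relative to other reads in regions, the intragenic part was nearly constant: 16.0% ± 0.174 for Young, 16.3% ± 0.415 for Old and 15.6% ± 0.185 for OldAcetate (SD, n = 2 each). As a median level per region on the log2(RPM + 0.5) scale, the Young libraries had 4.32 and 4.11, the Old libraries 3.98 and 3.81 and the OldAcetate libraries 4.08 and 4.07. The difference of means was -0.32 for Old minus Young, 0.18 for OldAcetate minus Old and -0.14 for OldAcetate minus Young.

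Shared promoter regions showed the same median log2 difference for age, -0.32, and a larger one for acetate, 0.28. The median log2 level of intragenic minus promoter regions was -0.09 and -0.19 for the Young libraries, -0.08 and -0.19 for Old and -0.26 and -0.20 for OldAcetate. Both OldAcetate libraries were lower than the other 4. The difference in this gap was 0.01 for Old minus Young (exact two-sided permutation p = 0.667), -0.09 for OldAcetate minus Old (exact p = 0.333) and -0.09 for OldAcetate minus Young (exact p = 0.333). The pooled SD was between 0.058 and 0.074, and 0.333 is the smallest p that 2 against 2 libraries allow, so none of these could pass a threshold of 0.05. In RPM per kb of the class, intragenic regions had a mean of 2.87 in Young, 2.28 in Old and 2.60 in OldAcetate, and promoter regions 3.42, 2.69 and 3.28.

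Against shared intergenic regions there was little gap to follow. The intragenic median log2 level was above the intergenic one by 0.12 and 0.11 for the Young libraries, 0.09 and 0.13 for Old and 0.12 and 0.11 for OldAcetate. The difference in this gap was -0.01, 0.01 and 0.00 for the 3 comparisons in the same order (exact p = 1 in each), with pooled SDs from 0.0097 to 0.022. The intergenic medians moved by -0.31, 0.17 and -0.14.

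**Figure D3:**
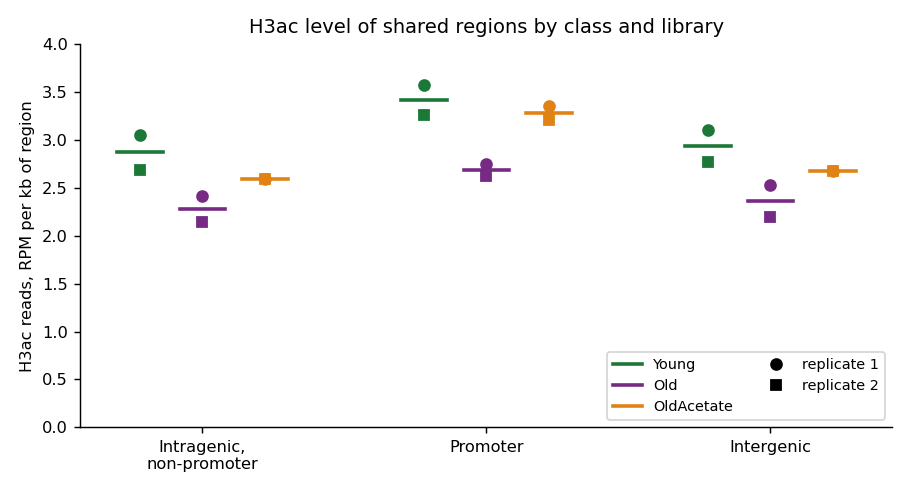
H3ac level in RPM per kb of shared intragenic non-promoter, promoter and intergenic regions. Points are the 6 libraries, circles replicate 1 and squares replicate 2, and bars are group means. In each class Old lies below Young and OldAcetate above Old, and for intragenic regions the means are 2.87, 2.28 and 2.60 RPM per kb.

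Counted region by region on RPM as deposited, 2455 of the 4558 regions (53.9%) had both Old libraries below both Young libraries, against 60.2% of all regions, and 76 (1.67%) had them above, against 1.29% of all regions. OldAcetate lay above Old without overlap in 1696 (37.2%), against 47.1% of all regions and 55.9% of shared promoter regions, and below in 186 (4.08%), against 3.46% of all regions. OldAcetate lay below Young without overlap in 1492 (32.7%), against 29.8% of all regions, and above in 283 (6.21%), against 7.6% of all regions. Since the regions were chosen with calls from these libraries, nothing is read from these counts.

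To find single regions that moved beyond the shift of their library, each library was scaled by its median deviation from the region means before limma. With this scaling, 0 of the 4558 regions passed an adjusted p of 0.05 in any comparison. Over all regions, 0.00819% passed for Old vs Young, 0% for OldAcetate vs Old and 0% for OldAcetate vs Young. At an unadjusted p under 0.05 there were 227 (4.98%, against 5.54% of all regions) for Old vs Young, 249 (5.46%, against 6.24%) for OldAcetate vs Old and 229 (5.02%, against 5.08%) for OldAcetate vs Young. These counts rested partly on single libraries: the 227 became 348 without Old replicate 2, the 249 became 384 without Old replicate 2 and 154 without OldAcetate replicate 2, and the 229 became 152 without Young replicate 2. Of the 227, 169 were higher and 58 lower in Old (all regions 703 and 651, intergenic 193 and 67, promoter 238 and 167). Of the 249, 65 were higher and 184 lower in OldAcetate (all regions 770 and 754, intergenic 57 and 195, promoter 332 and 132). Of the 229, 95 were higher and 134 lower in OldAcetate (all regions 599 and 643, intergenic 88 and 111, promoter 319 and 88). The median scaled difference of all intragenic regions was 0.03, -0.06 and -0.03 on the log2 scale in the same order, and that of shared promoter regions 0.01, 0.05 and 0.06. Shared intergenic regions had 0.04, -0.06 and -0.02, close to the intragenic regions. By edgeR with RLE factors on the recovered reads, 1 intragenic region was called for Old vs Young, where 0.0205% of all regions were called, and 0 for the other comparisons.

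Without scaling, 305 regions (6.69%) passed limma for Old vs Young, against 9.52% of all regions. All but 1 were lower in Old. For OldAcetate vs Old, 5 regions (0.110%) passed, all higher in OldAcetate, against 0.311% of all regions, and for OldAcetate vs Young 0 passed, against 0% of all regions. The 5 lay in Ppp1r12b, a regulatory subunit of myosin phosphatase, Atp8b4, a phospholipid-transporting ATPase, Bank1, Ap3s2, a subunit of the AP-3 adaptor, and Clint1. The Ppp1r12b region covers a start site of another biotype. The Ap3s2 region had 17.4 and 16.3 RPM in Young, 10.2 and 8.35 RPM in Old and 19.2 and 22.5 RPM in OldAcetate (unscaled log2 difference 1.13, limma adjusted p = 0.0236).

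Regions of low p per comparison are given next, though none passed the threshold by scaled limma. They are the 2 of lowest p per direction among those with non-overlapping groups and a mean RPM of at least the median, 16.3. Lack of overlap between the 2 groups compared thus follows from the choice. For Old vs Young, the region in Chl1, an L1-family adhesion molecule (intron 4, chr6:103648501-103650000), had 16.5 and 31.0 RPM in Young, 37.0 and 31.8 RPM in Old, and 27.9 and 32.5 RPM in OldAcetate. The Old libraries were above Young, but Young replicate 2 nearly reached them. The scaled log2 difference was 0.94 with an SE of 0.20 (limma adjusted p = 0.131). It was the region that edgeR called (adjusted p = 0.0348), and the limma difference turned on the Young libraries. It was 0.41 without Young replicate 1 (adjusted p = 0.998) and 1.47 without Young replicate 2 (adjusted p = 0.000364). Both fits leave Young with 1 library, which is assumed to vary like the other groups. This region is 1500 bp long, held 19.6 RPM per kb, where the next region held 8.11, and is 42.2% soft-masked, and the part of its repeat content in the difference was not tested.

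Ptprk, a receptor tyrosine phosphatase, carried a region in intron 1 with 25.3 and 28.6 RPM in Young, 33.3 and 35.8 RPM in Old, and 26.5 and 25.9 RPM in OldAcetate. Here the Old libraries stood above the other 4. The scaled log2 difference for Old minus Young was 0.70 ± 0.18 (SE; limma adjusted p = 0.442). Elf1, an ETS-family transcription factor, had 24.0 and 20.8 RPM in Young, 12.9 and 7.95 RPM in Old, and 17.8 and 19.2 RPM in OldAcetate in intron 1. Old was the lowest group without overlap (scaled log2 difference -0.75 ± 0.23, adjusted p = 0.737, and -0.48 without Old replicate 2). The region in Tnfaip8, a regulator of apoptosis induced by TNF, had 23.4 and 20.8 RPM in Young, 10.6 and 9.55 RPM in Old and 16.8 and 16.7 RPM in OldAcetate, the same order (-0.74 ± 0.23, adjusted p = 0.737).

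For OldAcetate vs Old, the Bank1 region, in intron 7 of a B-cell adaptor gene, had 15.7 and 9.15 RPM in Old and 23.2 and 25.0 RPM in OldAcetate, and Young had 26.3 and 16.7 RPM, so both Old libraries were the lowest and OldAcetate lay within the range of Young. Clint1, a clathrin interactor, had 26.8 and 27.8 RPM in Old, 53.1 and 40.0 RPM in OldAcetate and 47.7 and 39.2 RPM in Young, so Old stood apart from the other groups. The scaled log2 differences were 0.74 ± 0.22 (limma adjusted p = 0.625) and 0.51 ± 0.16 (adjusted p = 0.654). They fell to 0.42 for Bank1 without Old replicate 2 and to 0.32 for Clint1 without OldAcetate replicate 1. Lower in OldAcetate were regions in Spsb4, a ubiquitin ligase adaptor, and Mlip, which encodes a lamin-interacting protein of muscle. Spsb4 had 31.9 and 26.6 RPM in Young, 32.8 and 28.6 RPM in Old, and 21.8 and 20.0 RPM in OldAcetate (-0.78 ± 0.18, adjusted p = 0.307). Mlip had 43.1 and 42.1 RPM in Young, 40.2 and 31.8 RPM in Old and 29.6 and 27.1 RPM in OldAcetate (-0.57 ± 0.16, adjusted p = 0.474). In both, the OldAcetate libraries were below the other 4. The Mlip region covers a start site of another biotype.

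For OldAcetate vs Young, regions in Thsd7a, a thrombospondin-domain protein, and Adcy2, an adenylyl cyclase, were higher. Thsd7a had 19.4 and 19.6 RPM in Young, 22.2 and 18.3 RPM in Old and 26.5 and 31.7 RPM in OldAcetate (0.67 ± 0.20, adjusted p = 0.871). Adcy2 had 18.4 and 17.2 RPM in Young, 22.2 and 21.5 RPM in Old and 26.2 and 25.0 RPM in OldAcetate, a stepwise order of groups (0.63 ± 0.20, adjusted p = 0.964). Lower were regions in Elovl5, a fatty acid elongase, and Ehd4, an ATPase of endocytic recycling. Elovl5 had 65.5 and 54.3 RPM in Young, 46.2 and 36.2 RPM in Old and 39.0 and 42.1 RPM in OldAcetate (-0.44 ± 0.14, adjusted p = 0.964). Ehd4 had 44.4 and 34.3 RPM in Young, 23.1 and 29.0 RPM in Old and 25.9 and 22.9 RPM in OldAcetate (-0.56 ± 0.18, adjusted p = 0.964). In both, Old and OldAcetate overlapped and lay below Young.

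**Figure D4:**
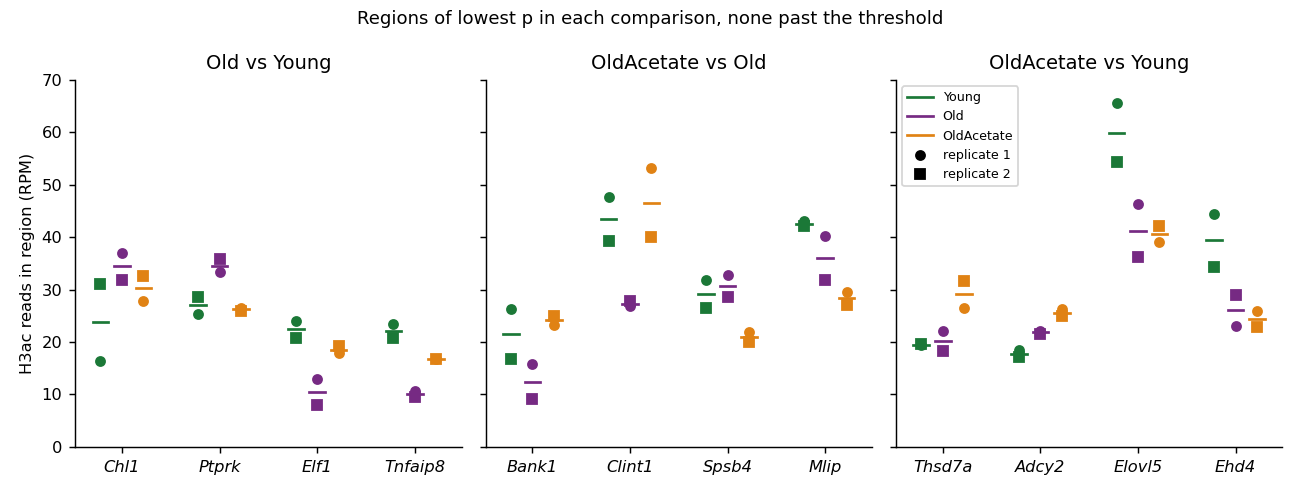
H3ac reads (RPM) in the 4 regions of lowest p for each comparison, named by host gene. Points are libraries, circles replicate 1 and squares replicate 2, bars are group means, and none passed an adjusted p of 0.05 by scaled limma. Elf1 and Tnfaip8 have their lowest values in Old, at 7.95 to 12.9 RPM.

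Changes in a region and at its host's promoter were set side by side for 3171 regions whose single host had 1 start-site region (1771 host genes). Across these regions, the scaled log2 difference of the region and that of the start-site region had a Pearson correlation of 0.01 for Old vs Young, -0.01 for OldAcetate vs Old and 0.01 for OldAcetate vs Young. The signs matched in 49.3%, 47.9% and 50.6% of regions. Regions of 1 host share a start-site region and all share the 6 libraries, and with a median SE of 0.23 for a region most of each difference is within replicate error. In the 1140 regions of lowest RPM the median scaled log2 difference was 0.08, -0.10 and -0.01 for the 3 comparisons, and in the 1140 of highest RPM 0.01, -0.04 and -0.03.

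Gene lists for MSC fates and signalling were then examined for genes that hold such a region. Among 28 osteogenic genes, 8 held 15 regions. Runx2, the master regulator of osteoblasts, held 4 over 48.0 kb, Smad1 and Nfatc1 held 2 each, and Alpl, the bone alkaline phosphatase, held 1. The region in Acvr1, a BMP receptor (intron 4), had 41.5 and 43.3 RPM in Young, 39.8 and 31.8 RPM in Old and 39.3 and 40.0 RPM in OldAcetate. The highest in Runx2 had 39.8 and 33.9 RPM in Young, 24.5 and 34.6 RPM in Old and 31.6 and 37.1 RPM in OldAcetate, with every pair of groups overlapping.

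Among 28 adipogenic genes, 13 held 39 regions. Ebf1, a transcription factor of adipocyte and B-cell precursors, held 9 over 89.5 kb, Zfp423, a determinant of preadipocytes, 8 over 62.0 kb, Rora 5, and Pparg, the master regulator of fat cells, 1. The top region in Zfp423 (intron 1) had 61.5 and 46.2 RPM in Young, 41.6 and 44.9 RPM in Old and 46.0 and 52.6 RPM in OldAcetate. In Zfp521, an antagonist of Zfp423 (intron 2), it had 49.4 and 43.7 RPM in Young, 37.0 and 41.4 RPM in Old and 42.7 and 37.1 RPM in OldAcetate. Of 18 chondrogenic genes, 10 held 38 regions, among them Sox5 and Zbtb20 with 8 each, Matn2 with 5, Gli2 and Gli3, the effectors of hedgehog signalling, with 4 each, and Sox6 with 3. The top region in Zbtb20 had 61.9 and 62.5 RPM in Young, 43.0 and 41.0 RPM in Old and 58.8 and 49.2 RPM in OldAcetate, so the groups did not overlap. In Gli2 it had 59.5 and 44.1 RPM in Young, 45.3 and 47.3 RPM in Old and 45.0 and 45.5 RPM in OldAcetate.

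Of 43 transcription factor genes of mesenchymal patterning, 18 (41.9%) held 56 regions, against 12.2% of all protein-coding genes. Adipogenic genes stood at 46.4% and chondrogenic genes at 55.6%. The share of genes that hold a region rises with gene length, as given above, and the lists were not matched for length. Nfib held 9 over 87.5 kb, Nfia and Zfhx3 6 each, and Foxp1 and Glis3 5 each. The top region in Foxp1 (intron 1) had 62.8 and 70.7 RPM in Young, 60.1 and 50.9 RPM in Old and 67.9 and 60.9 RPM in OldAcetate. Zbtb16 had 54.6 and 51.9 RPM in Young, 55.0 and 42.6 RPM in Old and 55.8 and 63.4 RPM in OldAcetate. Of the actin cytoskeleton genes, 19 of 49 held 47 regions, with 4 each in Lpp, Palld, Mrtfb, Svil and Bcar3, and of the matrix and adhesion genes 17 of 50 held 34, with 11 in Gpc6 and 4 in Col8a1. In Palld, an actin cross-linker, the top region holds 6 AP-1 matches in 15000 bp. It had 56.9 and 57.6 RPM in Young, 45.8 and 43.0 RPM in Old and 52.4 and 48.8 RPM in OldAcetate. Col4a2, a basement membrane collagen, was uneven between libraries, with 68.1 and 46.2 RPM in Young, 53.2 and 29.4 RPM in Old and 38.6 and 55.9 RPM in OldAcetate.

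Among 27 Hippo pathway genes, 10 held 22 regions, including 3 in the co-activator gene Yap1, 3 in Wwtr1 (TAZ) and 4 in Tead1, their DNA-binding partner. The top Yap1 region (intron 3) covers a start site of another biotype. It had 53.3 and 40.8 RPM in Young, 39.3 and 42.2 RPM in Old and 44.7 and 48.4 RPM in OldAcetate. Of 22 AP-1 and related genes, 4 held 13: Creb5 6, Bach2 5, Fosl2 1 and Batf 1. The top Creb5 region had 43.8 and 29.4 RPM in Young, 26.8 and 27.4 RPM in Old and 30.9 and 22.9 RPM in OldAcetate. Of 25 TGF-beta and SMAD genes, 3 held regions (12.0%, against 12.2% of all protein-coding genes), 6 in Ltbp1 and 1 each in Ltbp2 and Tgfb2. Tgfb2 encodes a secreted ligand, Ltbp1 a matrix protein that holds latent TGF-beta, and Ltbp2 a matrix protein of the same family. Ltbp2 had 57.9 and 49.0 RPM in Young, 26.8 and 34.2 RPM in Old and 44.7 and 46.3 RPM in OldAcetate, again without overlap. Among 36 genes of histone acetylation, 6 held 15 regions, among them 6 in Hdac9 and 2 each in Hdac4, Kat2b, Kat6a and Kat6b. In Hdac4, a class II deacetylase, the top region had 57.6 and 42.5 RPM in Young, 50.8 and 42.6 RPM in Old and 51.4 and 53.0 RPM in OldAcetate, with Old and OldAcetate both inside the range of Young.

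In the Wnt list 13 of 36 genes held 31 regions, including the receptors Ror1 (9), Ror2 (3), Lrp5 (2) and Lrp6 (2), the ligands Wnt5a, Wnt5b and Wnt2b (1 each) and the nuclear factor Tcf7l1 (5). The top region in Ror1 had 65.1 and 53.9 RPM in Young, 55.9 and 43.7 RPM in Old and 47.0 and 44.2 RPM in OldAcetate. The list's median scaled log2 difference was -0.05 for Old vs Young, -0.17 for OldAcetate vs Old and -0.18 for OldAcetate vs Young over the 31 regions, where all regions of the table had -0.00, 0.00 and 0.00. An unadjusted p under 0.05 was found for 3 of the 31 for Old vs Young (1 higher, 2 lower), where 5.54% of all regions had one, for 3 for OldAcetate vs Old (all lower), where 6.24% had one, and for 8 (25.8%) for OldAcetate vs Young (1 higher, 7 lower), where 5.08% had one. None passed the adjusted threshold in any comparison. The 25.8% was the highest share of any list for OldAcetate vs Young and was picked out with the values of all lists seen. The other lists had from 0% to 12.5%. Several of the 8 regions share a host gene, so they are not independent. The 7 lower ones, named after their values were seen, lay in Wnt2b, Ror1 (2), Tcf7l1 (2), Lrp6 and Ror2. The Wnt2b region had 27.6 and 29.0 RPM in Young, 22.7 and 17.5 RPM in Old and 20.5 and 14.6 RPM in OldAcetate (scaled log2 difference -0.58 ± 0.20, limma adjusted p = 0.964). The Ror2 region had 50.3 and 44.9 RPM in Young, 27.3 and 27.0 RPM in Old and 37.6 and 29.2 RPM in OldAcetate (-0.40 ± 0.16, adjusted p = 0.964).

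In the other lists, the median scaled log2 difference ran from -0.02 to 0.21 for Old vs Young, from -0.09 to -0.00 for OldAcetate vs Old and from -0.06 to 0.04 for OldAcetate vs Young, and 0 regions passed. Summed over their regions, all 11 lists had a lower mean RPM in Old than in Young and a higher mean in OldAcetate than in Old, as over the table as a whole. In all 11 lists, genes that held a region had a higher median length than those that did not. In the mesenchymal patterning list, genes with a region had a median length of 190 kb and those without 9.66 kb.

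**Figure D5:**
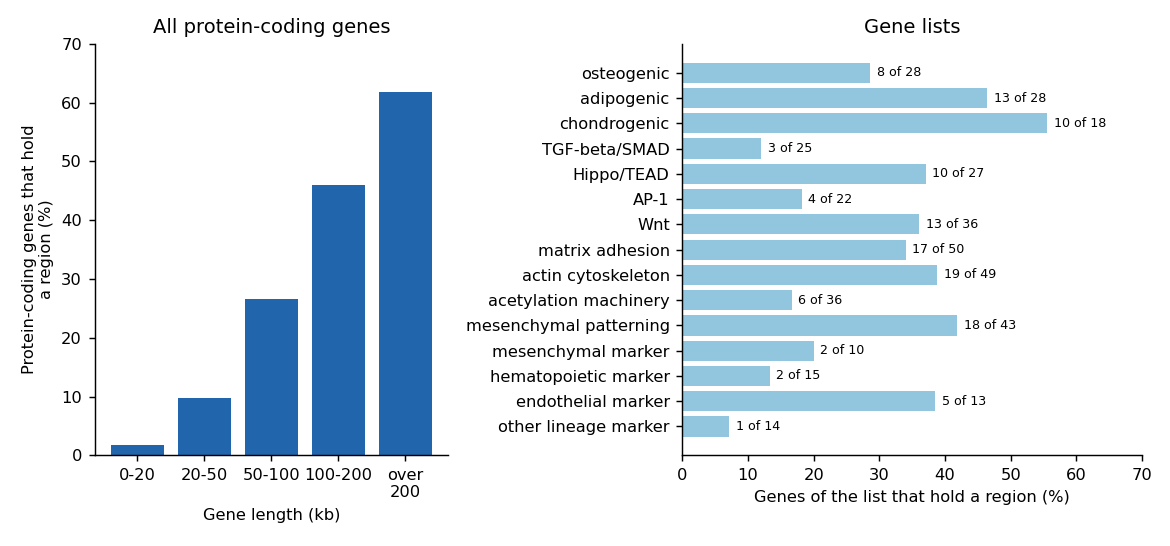
Left, percent of protein-coding genes that hold a shared intragenic region, by gene length in kb, rising from 1.71% up to 20 kb to 61.7% over 200 kb. Right, percent of the genes of each list that hold such a region, with counts, from 7.14% of other lineage markers to 55.6% of chondrogenic genes.

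Markers of cell types were checked as well. All 10 mesenchymal markers had a region at a start site, and 2 of them, Nt5e (CD73) and Pdgfra, also held an intragenic region. The Nt5e region had 40.8 and 38.8 RPM in Young, 38.4 and 32.2 RPM in Old and 33.6 and 40.9 RPM in OldAcetate. Of 15 hematopoietic markers 3 had a start-site region, and Ptprc (CD45) and Itgam had none, while intragenic regions were found in Spi1 and Ikzf1. Of 13 endothelial markers 4 had a start-site region. Intragenic regions lay in 5 of the 13, with 3 in Erg, 2 in Pecam1 and 1 each in Kdr, Tie1 and Vwf, and of these genes only Erg had a start-site region. The Vwf region (intron 6) holds 7 AP-1 matches in 14500 bp. It had 39.5 and 44.5 RPM in Young, 37.4 and 27.4 RPM in Old and 32.9 and 40.9 RPM in OldAcetate. The summed level of the 8 endothelial-gene regions was 173 and 160 RPM in Young, 143 and 116 RPM in Old and 142 and 148 RPM in OldAcetate, and that of the 2 hematopoietic-gene regions 24.3 to 29.9 RPM over all libraries. Of 14 markers of other lineages, 1 had a start-site region, and the neuronal gene Syt1 held the list's only intragenic region. Whether other cell types contributed to the differences between groups was not tested.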

How the data were processed

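H3ac CUT&RUN was carried out on about 100K MSCs per sample, with yeast DNA in the stop buffer. The labels name Bowtie2, Picard and mm10, and the region caller is not given in the sources used here, nor whether the yeast DNA scaled the values. The values deposited by the authors are called RPKM but were not divided by length: in each library 100% were whole multiples of the value of 1 read (tolerance 0.01 reads), so they are RPM. Totals recovered from this step were 2163351 to 3039481 reads. Within groups, intragenic regions differed by slightly more than counting noise (chi-square per region 1.07 to 1.13).

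Regions were annotated with GENCODE M21 basic on GRCm38/mm10, whose chromosome lengths all coordinates fit. log2(RPM + 0.5) was centred per library and fitted with limma 3.58.1 in R 4.3.3 (6 libraries, trend and robust eBayes, Benjamini-Hochberg over 24431 regions). Folds on this scale understate changes of low regions. Exact two-sided permutation tests over libraries compared classes, and edgeR 4.0.16 was run on recovered reads as an alternative. On simulated data for Old vs Young (24431 regions, 200 changed), limma recovered 14% at 1.5-fold, 65% at 2-fold and 90% at 3-fold. Plots were made in Python 3.11.15 (matplotlib 3.10.9).

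The members and gene lists were chosen with earlier results of these data known. Regions named are the 8 highest per kb, the 8 genes with most regions, the regions called or of lowest p with non-overlapping groups (2 per direction) in each comparison, the 2 with most reads per list, and those nearest to the bounds. Those of lowest p also had a mean RPM of at least the median of the intragenic regions. Other regions are marked as chosen after their values were seen. Not every gene of the lists is reported here by name.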

Additional observations from a re-analysis of the deposited data

How the results depend on the processing

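Of the 4558 regions, the 0 called for Old vs Young became 305 with no scaling, 346 by edgeR with no factors and 1 by edgeR with RLE factors, and the 0 for OldAcetate vs Old became 5 with no scaling and 2 by edgeR with no factors. Without scaling or factors, a shift of whole libraries counts as change by construction. The cause of the call with RLE factors was not tested. Leaving out 1 library gave 0 to 1 calls for Old vs Young (1 without Young replicate 2, Chl1), 0 to 0 for OldAcetate vs Old and 0 to 0 for OldAcetate vs Young. With the replicate number as a block, 0 were called in each comparison. Equal numbers did not deviate together (correlation of replicate differences between groups -0.029 to -0.0018 over the 4558 regions). Replicates differed by little more than counting noise (chi-square per region 1.07 to 1.13), so this correlation could not detect a shared animal or day. Whether equal numbers mark one is not given in the labels. All other alternatives kept the counts at 0.

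The gap to promoters for Old vs Young, 0.01 on the log2 scale, turned to -0.0077 with start sites of all biotypes, and to -0.044 without Young replicate 2 and -0.049 without Old replicate 1 (leaving out each library, -0.049 to 0.060). For OldAcetate vs Old it stayed negative (-0.15 to -0.04) and for OldAcetate vs Young too (-0.14 to -0.04). The gap to intergenic regions, near 0, changed sign often. For regions of at least the median RPM it was 0.0068, -0.0078 and -0.0010 in the 3 comparisons. Leaving out libraries gave -0.028 to 0.013, -0.013 to 0.028 and -0.0089 to 0.0092. OldAcetate vs Young also turned to -0.00019 at pseudocount 1, -0.0072 by the mean and -0.012 with start sites of all biotypes. The cause was not tested.

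Leaving out each library, the median level differed by -0.42 to -0.21, 0.10 to 0.27 and -0.24 to -0.03, and the share of the library by -2.64 to -1.37, 0.61 to 1.54 and -1.57 to -0.29 points. AP-1 matches were in 26.0% of regions in the central 1000 bp and 9.52% in the narrower window of 300 bp, as a wider window holds more letters. The 12 regions named for low p kept their direction in all alternatives, but Chl1, Elf1, Bank1 and Clint1 moved by over 1.5 times without 1 library, as given above. In 10 of 192 fits 1 of them passed: Chl1, Elf1, Tnfaip8, Bank1 and Clint1 with no scaling, Elf1, Tnfaip8 and Clint1 by edgeR with no factors, and Chl1 by edgeR with RLE factors and without Young replicate 2. With 31 to 56 reads per library in the median of all 24431 regions, changes of 1.5-fold were mostly out of reach.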
